A study of Xenopus laevis with 4 samples.

Results

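The Nodal ligands are secreted proteins of the TGF-beta superfamily that specify mesoderm and endoderm in the vertebrate blastula. They are made as precursors and cut by proprotein convertases. They act through activin receptors with an EGF-CFC co-receptor (the tdgf1 genes), and the receptors phosphorylate Smad2 and Smad3, which enter the nucleus with Smad4 and bind DNA with partners such as Foxh1. Xenopus laevis carries several nodal genes, many in tandem arrays. In the Xenopus embryo nodal5 and nodal6 are known as the earliest of them and are activated by maternal VegT and beta-catenin. nodal1 and nodal2 are later mesoderm and endoderm inducers. nodal3 is a dorsal target of Wnt signalling that lacks mesoderm-inducing activity.

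The family was taken as every row of the count table named nodal, with or without a number, once a final .L or .S was removed. These endings mark the long and the short chromosome of each homeologous pair in this allotetraploid frog. The rule used names only and found 13 of 49078 features, which were nodal.L, nodal1.L, nodal1.S, nodal2.L, nodal3.1.L, nodal3.2.L, nodal5.L, nodal5.2.L, nodal5.5.L, nodal5.6.L, nodal5.8.L, nodal6.L and nodal6.S. The RefSeq gene table for the assembly Xenopus_laevis_v10.1 held 10 of the 13 under the same symbol, each as a protein-coding gene, and gives xnr4 as an older name of nodal.L. nodal5.5.L, nodal5.6.L and nodal5.8.L were not matched. A further gene of that table, nodal.S on chromosome 7S, had no row in the count table under that symbol and was not analysed here.

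RNA was measured in 4 libraries of whole X. laevis embryos staged to the mid-blastula transition (9 hours post fertilization, approximately, per the labels), when the embryo starts large-scale transcription. The 2 EU-RNA libraries were made from embryos that had received 10 nl of EU (5-ethynyl uridine) at 50 mM by microinjection as 1-cell embryos. EU is a nucleoside that cells build into RNA made after the injection. Their EU-containing RNA was biotinylated by click chemistry and captured on streptavidin beads. The 2 libraries of the Normal group hold unselected RNA, maternal and newly made, from embryos described as normal. The treatment label gives the injection for all 4 samples, whereas the extraction protocol and the design text set EU-injected embryos against normal ones, and that reading is followed here. On it, the groups differ in injection as well as in capture, and these cannot be told apart. Strain and clutch are not given in the sources used here, and nothing in the labels says that replicates came from separate clutches, so the p-values reflect variation among the 4 libraries that may be technical only. In whole embryos, a change in the number of cells making a transcript and a change in RNA per cell cannot be told apart.

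Totals were 81201990 and 117849586 estimated counts in EU-RNA replicates 1 and 2, and 47598265 and 209445802 in Normal replicates 1 and 2. Levels below are CPM, that is, counts divided by TMM-adjusted library sizes so that libraries of unlike depth can be compared. A count of 0 allows up to 3 counts, or 0.0352 and 0.0224 CPM in the EU-RNA libraries and 0.0675 and 0.0160 CPM in the Normal libraries, for counting error only. All 25 features of the blastula marker list (among them pou5f3, vegt, sox3, ventx, h1foo and foxi2 genes) were above 1 CPM in every library. Their summed levels were 11612 and 11810 CPM in EU-RNA and 4600 and 4650 CPM in Normal. The part of this difference in the results below was not tested. The list did not go 1 way. Abundant members such as pou5f3.2.L (2657 and 2689 CPM in EU-RNA, 1007 and 1130 CPM in Normal) weigh most in the sum. In contrast, h1foo.L (45.7 and 55.4 CPM in EU-RNA, 113 and 102 CPM in Normal), h1foo.S, foxi2.S, pou5f3.3.L and ddx25.L were lower in both EU-RNA libraries. Of 18 features of the differentiated tissue list, 9, among them the globin and crystallin genes, were at 0 in every library. That list's sum was 27.5 and 19.2 CPM in EU-RNA and 4.12 and 3.90 CPM in Normal, and its only member above 1 CPM in every library was the insulin gene ins.L, at 27.3 and 17.6 CPM in EU-RNA and 1.78 and 2.00 CPM in Normal.

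Nodal transcripts made up a larger share of the captured RNA than of total RNA. The 13 features together held 64466 and 85888 counts in the EU-RNA libraries and 2222 and 9543 counts in the Normal libraries. This was 0.0794% (95% Wilson interval 0.0788 to 0.0800) and 0.0729% (0.0724 to 0.0734) of the EU-RNA counts, against 0.00467% (0.00448 to 0.00487) and 0.00456% (0.00447 to 0.00465) of the Normal counts. These intervals cover counting error only. Summed into 1 row, the family stood at 758 and 641 CPM in EU-RNA and at 50.0 and 51.0 CPM in Normal. The edgeR quasi-likelihood test gave a log2 fold change, EU-RNA over Normal, of 3.79 (SE 0.21, adjusted p = 0.00363). The Normal libraries were nearly level with each other although their depths differed more than those of any other pair, and the lower EU-RNA library was 12.6 times the higher Normal one.

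The filter on low counts passed 11 of the 13 features, and 9 of these 11 were higher in EU-RNA at a Benjamini-Hochberg adjusted p below 0.05 over all 26543 features tested, while 0 were lower. Of all features tested, 4.69% were higher and 0.889% were lower. No feature of the family had a negative fold change at an unadjusted p below 0.05, so the count there was also 0, as were the family's lower calls by DESeq2 and by limma-voom, which called 7.08% and 1.45% of all features lower. The median log2 fold change was 3.83 over the 11 family features tested and 0.01 over all features tested. Both depend on the scaling between libraries, and with library size only they were 4.07 and 0.28. By DESeq2 9 members were higher, beside 11.3% of all features, and by limma-voom 7 were, beside 4.25%. The 9 called features were also the 9 in which both EU-RNA libraries lay above both Normal libraries. That separation occurred in 26.4% of all features tested. With 2 libraries against 2, an exact permutation test of a single feature cannot go below p = 0.333, so each call rests on the variance that edgeR shares across the table.

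**Figure D1:**
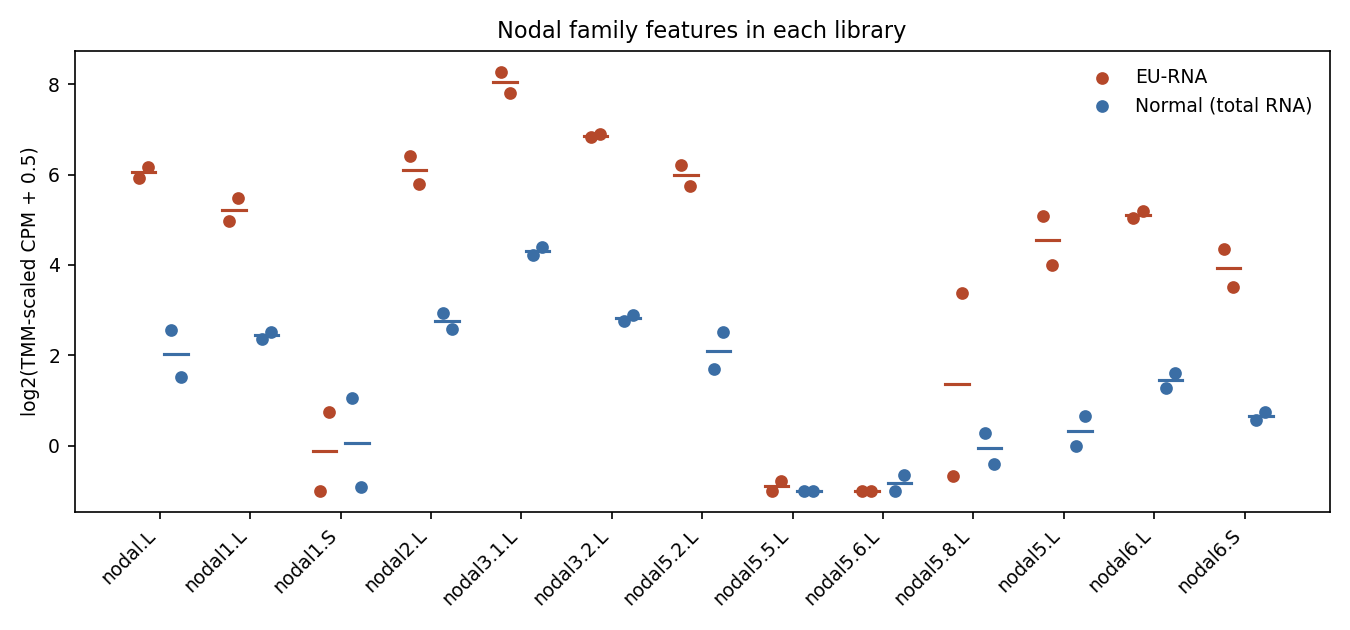
Levels of the 13 nodal features, as log2 of TMM-scaled CPM plus 0.5, with 1 point per library and a bar at the mean of 2 libraries of EU-RNA (left of each pair) and Normal (right). The groups are separate in 9 features, while nodal1.S, nodal5.5.L, nodal5.6.L and nodal5.8.L overlap or lie near 0 counts.

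The early genes nodal5 and nodal6 had the following levels. nodal5.L had 33.6 and 15.4 CPM in EU-RNA, against 0.495 and 1.08 CPM in Normal. Its groups did not overlap, and its log2 fold change of 4.94 with SE 0.75 (edgeR adjusted p = 0.0194) was numerically the highest of the family. Both groups were spread about equally, each with its libraries differing by more than 2-fold, and the fold change rests on 22 counts in Normal replicate 1 and 202 in Normal replicate 2. By limma-voom nodal5.L did not pass (adjusted p = 0.141).

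The tandem gene nodal5.2.L had 73.2 and 53.5 CPM in EU-RNA, against 2.72 and 5.19 CPM in Normal, a log2 fold change of 3.99 with SE 0.43 (edgeR adjusted p = 0.00682). The lower EU-RNA library was 10.3 times the higher Normal library. nodal6.L had 32.1 and 36.1 CPM in EU-RNA, against 1.94 and 2.54 CPM in Normal, a log2 fold change of 3.92 with SE 0.42 (edgeR adjusted p = 0.00635). Its replicates lay close together in both groups, and the lower EU-RNA library was 12.6 times the higher Normal library.

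nodal6.S, the short-chromosome copy, had 19.8 and 11.0 CPM in EU-RNA, against 0.990 and 1.17 CPM in Normal, a log2 fold change of 3.83 with SE 0.75 (edgeR adjusted p = 0.0434). The fold change was close to that of nodal6.L, but this was the least secure of the 9 calls. It was lost by limma-voom (adjusted p = 0.113), without Normal replicate 1 (edgeR adjusted p = 0.116) and without Normal replicate 2 (edgeR adjusted p = 0.0627). With both nodal6 copies summed, the gene had 51.9 and 47.1 CPM in EU-RNA and 2.93 and 3.71 CPM in Normal, a log2 fold change of 3.89 with SE 0.34 (edgeR adjusted p = 0.00451).

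The remaining nodal5 copies had few reads in most libraries, and those of nodal5.8.L were uneven between replicates. nodal5.8.L had 11 and 1329 counts in EU-RNA and 32 and 47 in Normal. EU-RNA replicate 2 was therefore far above the other 3 libraries, and EU-RNA replicate 1 lay below both Normal libraries in CPM. The feature did not pass (log2 fold change 3.38, SE 2.15, edgeR adjusted p = 0.421). Its value was 4.30 (edgeR adjusted p = 0.000784) without EU-RNA replicate 1 and -1.96 (edgeR adjusted p = 0.741) without EU-RNA replicate 2.

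nodal5.5.L had counts in a single library, 11 in EU-RNA replicate 2, and nodal5.6.L likewise, 26 in Normal replicate 2. Neither passed the filter, and no fold change is given for them. With all 5 nodal5 copies summed, the gene had 107 and 78.9 CPM in EU-RNA and 3.94 and 6.66 CPM in Normal, a log2 fold change of 4.12 with SE 0.37 (edgeR adjusted p = 0.00459). The summed value does not depend on how reads were divided among the 5 summed copies, whereas the value of each copy does. Whether reads were shared with loci outside the sum was not tested.

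The mesoderm and endoderm inducers nodal1 and nodal2 lie side by side on chromosome 3L. nodal2.L had 84.9 and 54.5 CPM in EU-RNA, against 7.16 and 5.44 CPM in Normal, a log2 fold change of 3.47 with SE 0.35 (edgeR adjusted p = 0.00589). EU-RNA replicate 1 was the higher of its pair, as was Normal replicate 1, and the groups were well apart. nodal1.L, the gene also used later in left-right patterning, had 30.8 and 44.3 CPM in EU-RNA, against 4.64 and 5.22 CPM in Normal. Its log2 fold change of 2.93 with SE 0.39 (edgeR adjusted p = 0.0123) was numerically the lowest among the 9 called features, and the lower EU-RNA library was 5.89 times the higher Normal library.

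nodal1.S, its homeolog, was sparse and uneven. It had 0 and 158 counts in EU-RNA and 70 and 5 counts in Normal, which is 0 and 1.18 CPM in EU-RNA and 1.58 and 0.0267 CPM in Normal. In each group a single library held nearly all of the reads, and the groups overlapped. The log2 fold change was -0.44 (SE 3.07, edgeR adjusted p = 0.959). It changed sign without EU-RNA replicate 1 (0.47) and without Normal replicate 1 (4.42). Summed over both homeologs, nodal1 had 30.8 and 45.5 CPM in EU-RNA and 6.21 and 5.25 CPM in Normal, a log2 fold change of 2.74 with SE 0.39 (edgeR adjusted p = 0.0153).

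The dorsal gene nodal3 held 48.8% to 55.8% of the family's counts in each library. nodal3.1.L had 310 and 224 CPM in EU-RNA, against 18.2 and 20.7 CPM in Normal, a log2 fold change of 3.78 with SE 0.26 (edgeR adjusted p = 0.00358). Both EU-RNA libraries were over 10 times the higher Normal library. nodal3.2.L had 113 and 119 CPM in EU-RNA, against 6.23 and 6.88 CPM in Normal, a log2 fold change of 4.14 with SE 0.23 (edgeR adjusted p = 0.00358). It had the closest EU-RNA replicates of the called features and ranked 8 by p among all features tested. The 2 copies summed reached 423 and 343 CPM in EU-RNA and 24.4 and 27.6 CPM in Normal, a log2 fold change of 3.88 with SE 0.23 (edgeR adjusted p = 0.00363).

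nodal.L lies apart from the other members, on chromosome 7L. It had 60.1 and 71.7 CPM in EU-RNA, against 5.36 and 2.35 CPM in Normal, a log2 fold change of 4.11 with SE 0.48 (edgeR adjusted p = 0.00839). The EU-RNA libraries were close to each other and the Normal libraries differed by more than 2-fold, with Normal replicate 1 the higher.

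**Figure D2:**
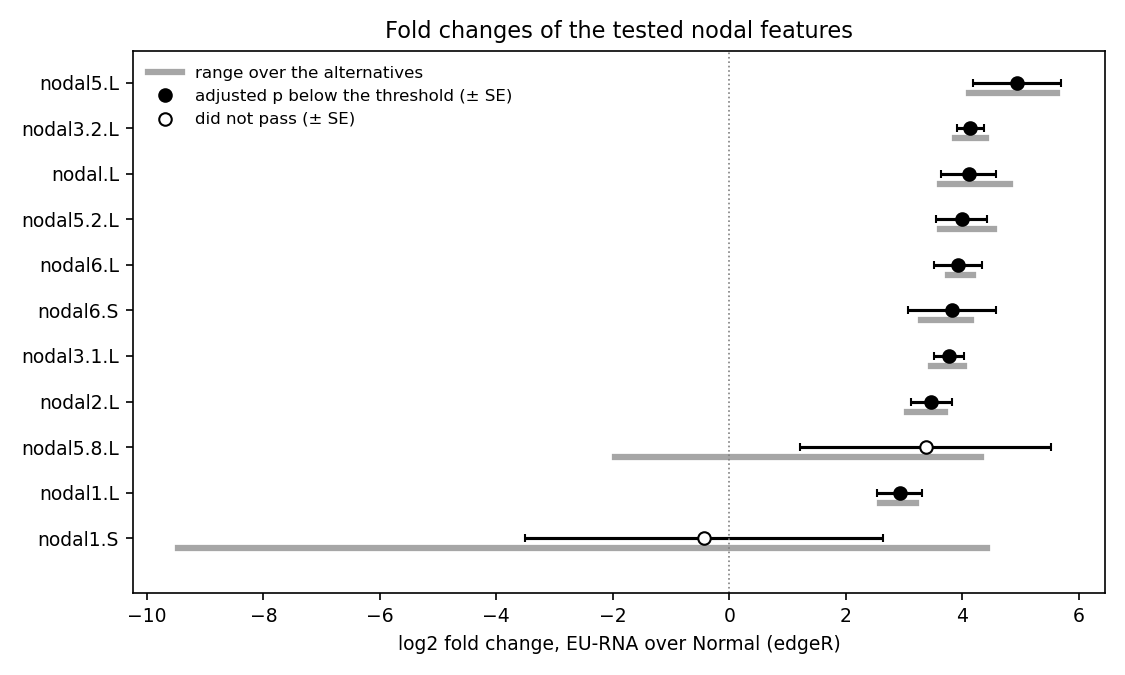
Log2 fold change, EU-RNA over Normal, of the 11 tested nodal features (points, with the SE of the edgeR fit as bars). A grey line runs from the lowest to the highest value over the alternative fits. Where a gene has several copies, the line also takes in the value of its summed copies. The 9 called features (filled) lie between 2.93 and 4.94, and the open points nodal5.8.L and nodal1.S have alternatives on both sides of 0.

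The log2 fold changes of the 9 called features ran from 2.93 to 4.94, and 90.9% (nodal1.L) to 97.5% (nodal5.L) of all features tested had a smaller one. Whether members differed from each other was tested on the log2 ratio of 2 members' counts within a library, which does not depend on scaling between libraries. The 10 members with counts in every library gave 45 pairs. None passed by the exact two-sided permutation test, in which the smallest possible p is 0.333 (smallest Benjamini-Hochberg adjusted p over the 45 pairs 0.968). EU-RNA and Normal ratios did not overlap in 15 of the 45 pairs. Separation of 2 libraries from 2, in either direction, has a probability of 0.333 where the groups do not differ. The pairs of copies of the same gene are therefore given as a description only.

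The homeologs nodal6.L and nodal6.S had a log2 ratio of 1.21 ± 0.72 in EU-RNA and 1.04 ± 0.11 in Normal (SD, n = 2 each), with overlapping values. The tandem copies nodal3.1.L and nodal3.2.L had a log2 ratio of 1.18 ± 0.39 in EU-RNA and 1.57 ± 0.03 in Normal (SD, n = 2 each), which did not overlap. nodal5.2.L and nodal5.L had one of 1.46 ± 0.48 in EU-RNA and 2.36 ± 0.14 in Normal (SD, n = 2 each), also without overlap. The ratios of nodal5.8.L to these copies overlapped between the fractions.

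With the copies of each gene summed, shares of the family's reads overlapped between the fractions for every gene but nodal1. nodal3 held 54.7% ± 1.62 of the family's counts in EU-RNA and 51.5% ± 3.71 in Normal (SD, n = 2 each). nodal5 held 13.2% ± 1.28 in EU-RNA and 10.5% ± 3.67 in Normal, and nodal6 held 7.10% ± 0.351 in EU-RNA and 6.57% ± 1.01 in Normal (SD, n = 2 each). nodal1 held 4.06% and 7.10% in EU-RNA and 12.4% and 10.3% in Normal. Among single copies, the shares of nodal1.L, nodal3.2.L and nodal5.L did not overlap. For a share too, such separation has a probability of 0.333 where the groups do not differ, and no share was tested. nodal3.2.L held 14.9% and 18.6% in EU-RNA and 12.5% and 13.5% in Normal, and nodal5.L held 4.44% and 2.40% in EU-RNA and 0.990% and 2.12% in Normal. These shares are of counts, and transcript lengths are not in the files, so they do not rank the genes by number of molecules.

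**Figure D3:**
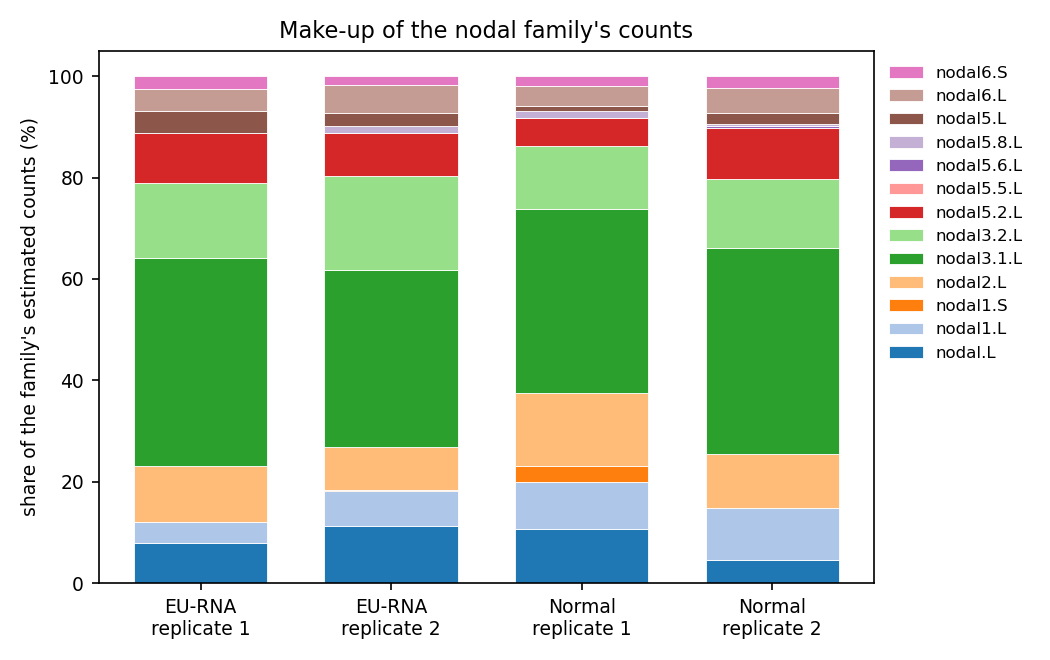
Share of the nodal family's estimated counts held by each feature, in percent, with 1 stacked bar for each library of EU-RNA (left) and Normal (right). nodal3.1.L and nodal3.2.L together hold 48.8% to 55.8% in each of the 4 libraries.

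Most nodal genes sit in arrays, and their neighbours were read from the gene order of the Xenopus_laevis_v10.1 RefSeq table, with positions not used (the build behind the counts: not given in the sources used here). On chromosome 3L, nodal5.L, nodal5.2.L and nodal6.L follow each other directly. A second run on 3L holds nodal3.1.L, nodal3.2.L, nodal2.L and nodal1.L, with a few loci without a gene symbol between them. Taking 3 genes to each side of every run of nodal genes, and the genes between members, gave 40 neighbours (those of nodal.S included), of which 27 had a row in the count table and 20 were tested. Of these 20, 3 were higher and 0 lower in EU-RNA by edgeR, beside 4.69% higher and 0.889% lower of all features tested. At an unadjusted p below 0.05, 7 had positive and 0 had negative fold changes. At least 6426 of the 26543 features tested also had an edgeR p below 0.05, in either direction. The share of all features in each direction at that cut was not taken, so these counts say nothing about the neighbours in particular.

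Several loci inside or directly beside the arrays had ratios like those of the nodal genes. LOC108711635, next to nodal5.L, had 13.2 and 17.5 CPM in EU-RNA and 1.10 and 1.61 CPM in Normal, a log2 fold change of 3.50 with SE 0.71 (edgeR adjusted p = 0.0483). LOC108711649, next to nodal3.2.L, had 56.4 and 33.6 CPM in EU-RNA and 1.33 and 0.956 CPM in Normal, a log2 fold change of 5.31 with SE 0.48 (edgeR adjusted p = 0.00467). The table gives no symbol for either, so what they encode is not stated here.

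LOC108710348, between the 2 nodal3 copies, had 46.2 and 39.5 CPM in EU-RNA and 0.135 and 2.58 CPM in Normal. LOC108711650, the locus after LOC108711649, had 35.9 and 46.1 CPM in EU-RNA and 0 and 1.90 CPM in Normal. Both groups were separate in each, yet neither passed (log2 fold changes 4.93 and 5.35, edgeR adjusted p = 0.0775 and 0.122), and in both Normal replicate 1 was far below Normal replicate 2.

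At the edges of the arrays most genes with a symbol had smaller fold changes. The FGF receptor gene fgfr1.L, next to nodal6.L, stood at a log2 fold change of 0.59 with SE 0.24 (edgeR adjusted p = 0.205). tacc1.L, a centrosomal protein gene next to nodal3.1.L, had 1.21 (SE 0.36, edgeR adjusted p = 0.124). ash2l.L, which encodes a subunit of histone methyltransferase complexes and lies next to nodal1.L, had 0.40 (SE 0.31, edgeR adjusted p = 0.534). The exception was star.L, a cholesterol transport gene that follows ash2l.L. It had 32.3 and 24.0 CPM in EU-RNA and 1.44 and 4.37 CPM in Normal, a log2 fold change of 3.27 with SE 0.66 (edgeR adjusted p = 0.0476). On chromosome 3S its homeolog star.S did not pass (1.63, SE 2.34, edgeR adjusted p = 0.761). Around nodal.L on chromosome 7L, the gene listed just before it, eif4ebp2.L, a translation repressor gene, had -0.44 (SE 0.51, edgeR adjusted p = 0.688). The neighbours were chosen by position after the nodal values were known, and their calls were not read under the alternative fits.

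**Figure D4:**
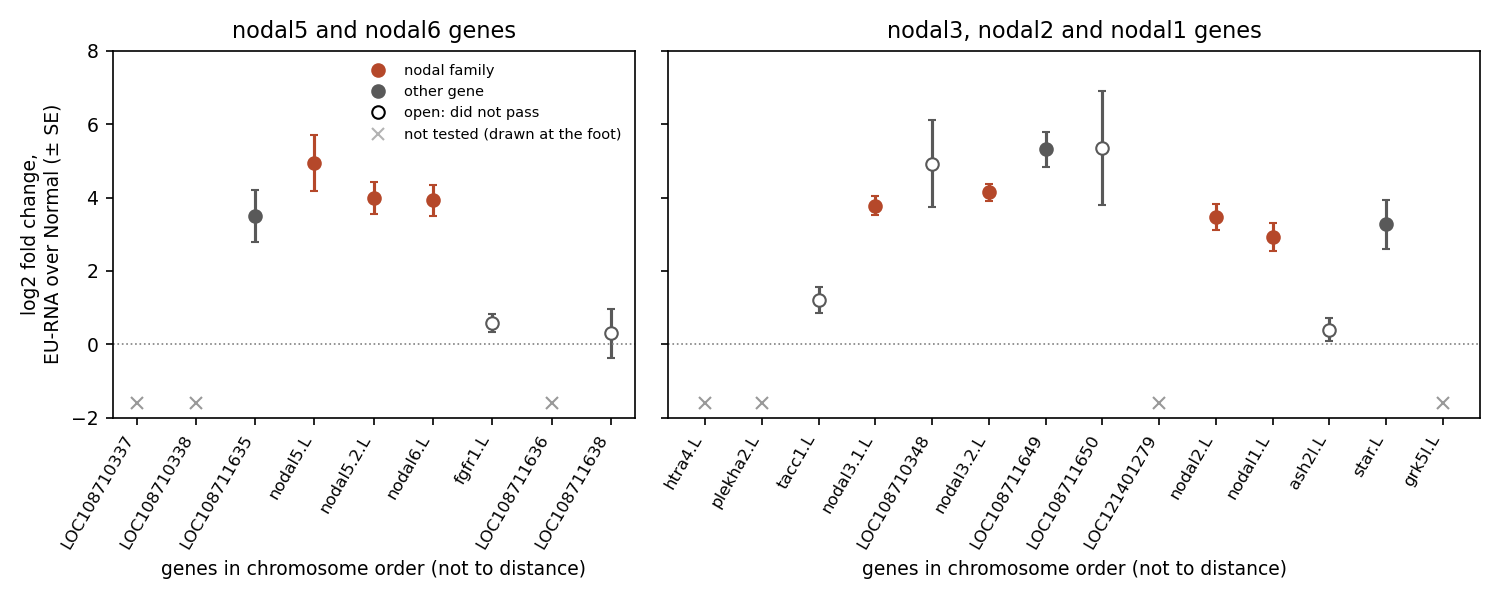
Log2 fold change, EU-RNA over Normal (with the SE of the edgeR fit), of the nodal genes (red) and their neighbours (grey) in gene order along 2 runs on chromosome 3L, where filled points passed the test and crosses mark genes not tested. Symbol-less loci inside or beside the arrays that were tested, other than LOC108711638, lie at 3.50 to 5.35, and fgfr1.L, tacc1.L and ash2l.L lie at 0.59, 1.21 and 0.40.

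The other genes of the Nodal pathway were read from 7 role lists. Of 102 features tested, 37 were higher and 0 lower in EU-RNA by edgeR, with a median log2 fold change of 1.40. Over all features tested, 4.69% were higher and 0.889% lower, with a median of 0.01. At an unadjusted p below 0.05, 5 of the 102 had negative fold changes. At least 6426 of the 26543 features tested passed that cut in either direction, and the share in each direction was not taken. DESeq2 and limma-voom called 2 and 1 lower, beside 7.08% and 1.45% of all features. Several of these lists hold genes already known to be higher in these libraries, so their direction is not independent support for that of the nodal genes.

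Among ligands and ligand processing, 1 of 7 tested features was higher. It was gdf3.S, which encodes another TGF-beta ligand, with 422 and 378 CPM in EU-RNA, against 76.9 and 60.8 CPM in Normal, a log2 fold change of 2.54 with SE 0.22 (edgeR adjusted p = 0.00443). The gene of the proprotein convertase furin, furin.L, had 24.1 and 37.1 CPM in EU-RNA, against 53.3 and 48.2 CPM in Normal, a log2 fold change of -0.73 with SE 0.29 (edgeR adjusted p = 0.197), and did not pass. The list's median was -0.43.

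Among receptors and co-receptors, 3 of 9 were higher. The EGF-CFC co-receptor gene tdgf1.3.L had 854 and 638 CPM in EU-RNA, against 109 and 114 CPM in Normal, a log2 fold change of 2.74 with SE 0.23 (edgeR adjusted p = 0.00431). tdgf1.1.L had 164 and 115 CPM in EU-RNA, against 32.8 and 39.7 CPM in Normal, a log2 fold change of 1.94 with SE 0.26 (edgeR adjusted p = 0.0126). The third was the type I receptor gene acvr1b.L (log2 fold change 1.71), while its homeolog acvr1b.S did not pass (0.57, edgeR adjusted p = 0.166). The 4 tested features of the type II receptor genes acvr2a and acvr2b had log2 fold changes from -1.50 to -0.03 and did not pass. At an unadjusted p below 0.05, 4 features of the list were positive and 2 negative, acvr2b.L (-1.50) and acvr2b.S (-0.87). At that cut the share of all features in each direction was not taken. By DESeq2 3 of the list were higher and 1 lower, beside 11.3% and 7.08% of all features.

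Among extracellular inhibitors, 3 of 8 were higher, with a median log2 fold change of 2.45. Both homeologs of lefty, a feedback antagonist of Nodal, were among them. lefty.S had 68.1 and 45.5 CPM in EU-RNA, against 1.62 and 4.72 CPM in Normal, a log2 fold change of 4.15 with SE 0.60 (edgeR adjusted p = 0.0162), and lefty.L had one of 3.28 (SE 0.23, edgeR adjusted p = 0.00358). The third was cer1.S, which encodes the secreted antagonist Cerberus. dand5.L, dand5.S and fst.S did not pass (log2 fold changes 0.38, 0.04 and 0.42, edgeR adjusted p = 0.436, 0.958 and 0.934). tmeff1.S (6.68) and fst.L (3.36) did not pass either (edgeR adjusted p = 0.183 and 0.419). They had 0 and 8 and 3 and 62 counts in Normal, and the list's median includes them.

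The signal transducers had 0 of 10 features higher and 0 lower by edgeR. At an unadjusted p below 0.05, 3 were positive and 0 negative, a cut at which the share of all features in each direction was not taken. DESeq2 called 2 higher and limma-voom 1, beside 11.3% and 4.25% of all features. The nearest to the threshold were foxh1.2.L, with 292 and 357 CPM in EU-RNA and 176 and 147 CPM in Normal (log2 fold change 1.01, SE 0.21, edgeR adjusted p = 0.0511), and smad4.1.L, with 54.7 and 42.8 CPM in EU-RNA and 17.2 and 21.9 CPM in Normal (1.32, SE 0.29, edgeR adjusted p = 0.0602). Other foxh1 and smad4 features had smaller log2 fold changes, -0.16 for foxh1.L, 0.40 for foxh1.S, 0.45 for smad4.1.S and 0.65 for smad4.2.S.

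Of 15 intracellular inhibitors 4 were higher. Both homeologs of the Smad co-repressor gene tgif2 were among them, with log2 fold changes of 2.58 (SE 0.22, edgeR adjusted p = 0.00451) for tgif2.L and 2.61 (SE 0.24, edgeR adjusted p = 0.00472) for tgif2.S. skil.S, another Smad co-repressor gene, and the inhibitory Smad gene smad7.S were the other called features. The homeologs skil.L and smad7.L did not pass (log2 fold changes 0.61 and 1.51, edgeR adjusted p = 0.271 and 0.0792). At an unadjusted p below 0.05, 7 were positive and 2 negative, trim33.L (-0.94, edgeR adjusted p = 0.0504) and smurf2.S (-0.55). At that cut the share of all features by direction was not taken. By DESeq2 6 were higher and 1 lower, beside 11.3% and 7.08% of all features. By limma-voom 3 were higher and 1 lower, beside 4.25% and 1.45%.

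Among 14 upstream regulators of nodal genes 4 were higher, with a median log2 fold change of 1.15. vegt.L had 1036 and 767 CPM in EU-RNA, against 258 and 257 CPM in Normal, and vegt.S had 695 and 725 CPM in EU-RNA, against 186 and 246 CPM in Normal (log2 fold changes 1.81 and 1.72, edgeR adjusted p = 0.0106 and 0.0113). The other called features were sox3.L and tcf7l1.L (log2 fold changes 1.13 and 1.17), whose homeologs sox3.S and tcf7l1.S (0.81 and 0.02) did not pass. The beta-catenin genes ctnnb1.L and ctnnb1.S (0.60 and 0.74) did not pass either (edgeR adjusted p = 0.162 and 0.0898). The dorsal homeobox genes sia1.L, sia1.S and sia2.S had log2 fold changes of 2.66, 4.63 and 3.50 and did not pass (edgeR adjusted p = 0.0676, 0.0617 and 0.140).

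Nodal target genes were higher in 22 of 39 tested features, with a median log2 fold change of 2.06. bix1.1.L had 657 and 658 CPM in EU-RNA, against 88.5 and 101 CPM in Normal (log2 fold change 2.79, SE 0.20, edgeR adjusted p = 0.00358). eomes.L, a T-box gene, had 634 and 610 CPM in EU-RNA, against 83.4 and 91.0 CPM in Normal (log2 fold change 2.84, SE 0.19, edgeR adjusted p = 0.00358). The highest fold change among called features of this list was 3.43, for chrd.2.L, below that of 8 of the 9 called nodal features. The feedback antagonist gene lefty.S, counted under extracellular inhibitors and not here, was at 4.15. These are descriptions with no test of the difference.

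**Figure D5:**
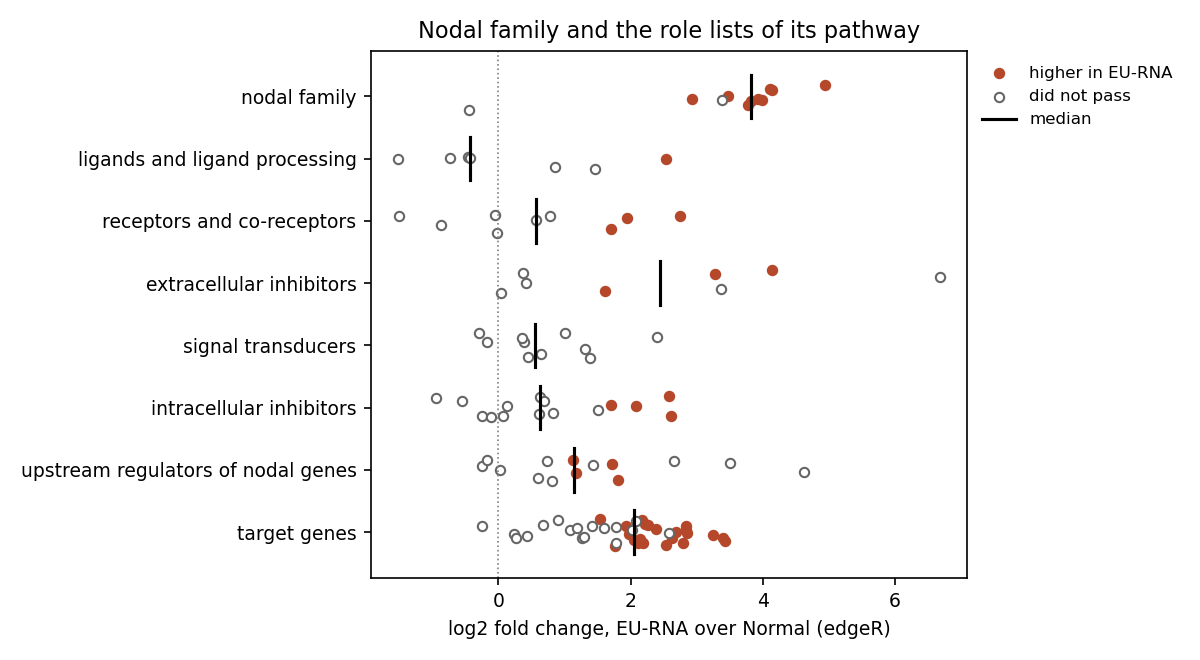
Log2 fold change, EU-RNA over Normal, of each tested feature of the nodal family and of 7 role lists of its pathway, where filled points were higher in EU-RNA by edgeR, open points did not pass, and bars are medians over the tested features. Medians are 3.83 for the nodal family, 2.45 for extracellular inhibitors, 2.06 for target genes and 0.55 for signal transducers.

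Genes whose pattern over the 4 libraries lay nearest to each member were found by the Euclidean distance of log2(CPM + 0.5), centred on each gene's own mean, among 9733 symbol-bearing features whose average log2 CPM was 3 or more. With 4 libraries in 2 groups this measures the fold change and the replicate differences, and no p is given. The added 0.5 shrinks the differences of features with low CPM in Normal, so their distances depend on level too. Nearest to nodal3.1.L was rhov.L, at a distance of 0.06, with 1541 and 1149 CPM in EU-RNA and 94.9 and 111 CPM in Normal. Nearest to nodal2.L were admp2.L (0.17) and mdm2.L (0.17), and nearest to nodal5.2.L was admp.L (0.15), which encodes a BMP-type ligand of the dorsal side.

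unc93a.L (0.09) was nearest to nodal1.L, fbln5.L (0.37) to nodal.L, acads.S (0.26) to nodal5.L, dhrs7c.S (0.23) to nodal6.L and b4galt3.L (0.13) to nodal6.S. Near here does not mean an equal fold change. dhrs7c.S, at 0.653 and 0.753 CPM in Normal, had a log2 fold change of 4.57, against 3.92 for nodal6.L. The nearest features of the uneven members were much farther away, nit2.S at 1.63 from nodal5.8.L and kiaa2013.S at 0.68 from nodal1.S. Within the family, nodal2.L and nodal6.S were closest to each other (0.40), followed by nodal3.2.L and nodal6.L (0.41).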

How the data were processed

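The authors deposited estimated counts, already whole numbers, for each feature in the 4 libraries. The submitters' processing notes name bcl2fastq and Salmon 0.12.0. The transcript set, genome build, strand setting and any scaling by transcript length are not given in the sources used here. Reads of near-identical copies can be divided wrongly between them, so homeologs and tandem copies were also summed.

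Counts were rounded and tested with edgeR 4.0.16 in R 4.3.3 (TMM, default filterByExpr, quasi-likelihood F-test, Benjamini-Hochberg adjustment over all features tested, threshold 0.05). The SE was taken as the absolute log2 fold change over the square root of F. The fit was tested on simulated data. Alternatives were DESeq2 1.42.0, limma 3.58.1 with voom, other scalings and filters, each library left out, and the replicate number as a block. Every member is named, with the 2 features of smallest p in each role list and the 3 nearest patterns of each tested member, of which the nearest are printed, except one that is not reported here. Other list genes and the neighbours were named after their values were seen. Members and lists were chosen with earlier results of these data known. Labels share replicate numbers across groups, but nothing says that a number marks a shared clutch. No column of values was left unused. No sequences are shown.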

Additional observations from a re-analysis of the deposited data

How the results depend on the processing

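The summed family, the summed nodal3, nodal5, nodal6 and nodal1 copies, and nodal.L, nodal1.L, nodal2.L, nodal3.1.L, nodal3.2.L, nodal5.2.L and nodal6.L were higher in EU-RNA and past the threshold under all 12 alternative fits. The summed family's log2 fold change ranged from 3.61 to 4.05. nodal5.L did not pass by limma-voom (4.59), and nodal6.S did not by limma-voom (3.62), without Normal replicate 1 (3.72) or without Normal replicate 2 (3.96), with a range of 3.29 to 4.15 over the left-out libraries. With a library left out, values lay between -1.96 and 4.32 for nodal5.8.L (4.30 without EU-RNA replicate 1) and between -9.47 and 4.42 for nodal1.S (0.47 without EU-RNA replicate 1). The cause of these swings was not tested. Summed nodal1 and summed nodal5 gave 2.74 and 4.12, but most of those counts came from other copies. nodal1.S held 0 and 158 of the 2618 and 6102 summed nodal1 counts in EU-RNA. nodal5.8.L held 11 and 1329 of the 9108 and 10583 summed nodal5 counts in EU-RNA. Members called higher numbered 8 to 10 with a library left out, while 3.77% to 14.9% of all features were.

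Over all features, 2990 were higher and 1879 lower by DESeq2, 2488 and 1134 without a filter, and 3282 and 3171 when EU-RNA replicate 1 was left out and 4577 and 5218 for EU-RNA replicate 2. Such fits take the spread of a single EU-RNA library from the Normal pair. Without a Normal library, 1197 to 1568 were higher and 151 to 174 lower. Lower features numbered 385 by limma-voom, 142 with library size only, 598 with the strict filter of 1 CPM and 680 with the replicate block, beside 1789 higher. Higher calls were 84.1% of all calls with TMM factors and 92.6% with library size only. That scaling moved the median log2 fold change of all features to 0.28 and that of the tested members to 4.07. With the replicate block 9 members were higher, as without it. Deviations of same-numbered libraries correlated at 0.000666 over the 26543 features tested, of which 12933 had an average log2 CPM of 3 or more. Counting noise in the other features can hide a shared deviation, so whether the numbers pair the libraries is not settled. Role list features numbered 56 higher and 6 lower with EU-RNA replicate 1 left out, 59 and 8 with EU-RNA replicate 2 left out, and 38 to 59 and 0 to 8 over the left-out libraries. Lower ones numbered 2 by DESeq2 and without a filter, and 1 by limma-voom, with RLE factors, without LOC108705792 (the most abundant feature of Normal), with the strict filter and with the block. Depth limits the Normal values: among the 9 called members the smallest count in Normal replicate 1 was 22.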
